A study of Mus musculus with 24 samples.

Results

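Whole liver of mice whose hepatocytes were made to lack both Shp2 and IkkB (Double KO, Alb-Cre+;IkkBf/f;Shp2f/f) was compared with whole liver of mice made to lack IkkB alone (IkkB KO, Alb-Cre+;IkkBf/f). The comparison asks what the loss of Shp2 adds where IkkB is already missing. Its members are 12925 of the 24319 genes in the liver table, those that the authors' program could test and whose value reached 0.1 in 1 or both genotypes. PolyA RNA was sequenced from 3 biological replicates per genotype, all of them 2-month-old male mice of the C57/BL6 strain, and the series title frames the study as one of Ras-Erk and NF-κB signalling, the circadian clock and liver cancer. Livers of C57/BL6 controls (WT), of Shp2 KO mice (Alb-Cre+;Shp2f/f) and isolated hepatocytes of all 4 genotypes were sequenced as well and are used here only beside the main comparison. Both compared groups carry Cre recombinase under the albumin promoter, which is active in hepatocytes. Whether any other cells of the liver also lost these genes is not given in the sources used here. The labels give no hour of collection.

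The Ptpn11 gene encodes Shp2, a phosphatase that passes signals from growth factor receptors on to Ras and the kinase Erk, and Erk in turn induces its own inhibitors of the Sprouty, Spred and Dusp families. IkkB, encoded by Ikbkb, is the kinase that releases NF-κB from its inhibitor IκB. In liver, NF-κB induces survival and inflammatory genes and acts together with the Stat3 pathway on the acute phase response, in which hepatocytes secrete large amounts of defence proteins. The hepatocyte also runs a circadian clock, in which the activators Clock and Arntl drive repressors of the Per and Cry families.

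The authors deposited 1 value per gene and genotype, by the convention of their program FPKM (fragments scaled to transcript length and to library size), with no value per mouse. No SD can be given, whether 1 of the 3 livers carried most of a value cannot be told, and sequencing depth is unknown. "Rose" and "fell" mark genes with a q-value (adjusted p-value) under 0.05 in the authors' deposited table, and no other measure of the spread between mice was at hand. In that table the smallest q was 0.000955, shared by 1120 genes of this comparison, and a gene said below to rise or fall from IkkB KO to Double KO liver with no q beside it had this value in the authors' deposited table. Calls in the other comparisons rest on the same threshold. The effect of a gene is log2((Double KO value + 1)/(IkkB KO value + 1)), which understates the change of low genes. In bulk liver, fewer cells of a type and less RNA per cell cannot be told apart.

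Of the 12925 genes tested, 2459 (19%) changed, 1489 of them higher in Double KO (11.5%) and 970 lower (7.5%). The median effect over all genes tested was -0.002, and the median size of the effect among the changed genes was 0.69. Effects of 1 or more were reached by 280 risen genes, effects of -1 or less by 245 fallen ones, and 45 and 38 of these lay beyond 2 and -2. Beside it, Shp2 KO against WT in whole liver changed 9.33% of the genes tested (5.23% higher, 4.1% lower), and Double KO against IkkB KO in isolated hepatocytes changed 11.4% (5.75% higher, 5.62% lower). Those 2 comparisons use other mice or libraries, and no difference from them could be tested without values per mouse. A further 11369 genes were too low for the authors' test, and 25 were too abundant, among them Alb, the albumin gene and defining hepatocyte marker, which is listed at 0 in both genotypes. The counts below are over the tested members of lists of genes of known function, and since a low gene can pass into the test through the genotype where it is high, they describe the tested members and not whole lists.

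**Figure D1:**
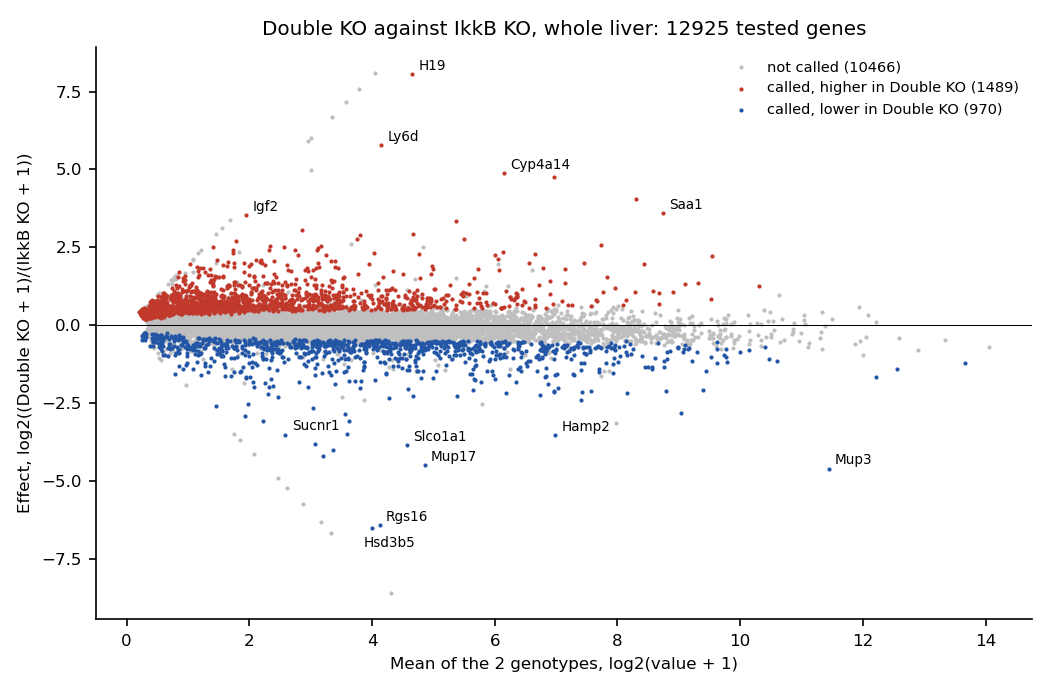
Effect of Double KO against IkkB KO in whole liver (vertical axis, log2) against the mean of the 2 genotypes on the log2(value + 1) scale (horizontal axis), 1 point per tested gene. Red points are the 1489 genes that rose, blue points the 970 that fell, and grey points those not past the threshold. H19, at an effect of 8.05, is the highest of the risen genes and Hsd3b5, at -6.51, the lowest of the fallen.

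The deleted genes were read first. Ptpn11 was 10.1 in IkkB KO and 6.09 in Double KO, with WT at 12.5 and Shp2 KO at 4.09, an effect of -0.65 with q = 0.00175 in the authors' deposited table. Both genotypes labelled as lacking Shp2 were below both others, and the transcript left in them was lower in Shp2 KO than in Double KO. Ikbkb, which is floxed in both groups compared, was 9.48 in IkkB KO and 6.31 in Double KO, with WT at 15.7 and Shp2 KO at 14.2. It fell further in Double KO with q = 0.0188 in the authors' deposited table, so the 2 groups also differ in the remaining Ikbkb transcript. In isolated hepatocytes Ikbkb went from 7.16 to 5.29 and was not called, with q = 0.135 in the authors' deposited table. Whether the part of Ikbkb deleted is among the exons counted is not given in the sources used here.

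The Ras-Erk inhibitors that Erk induces fell in part. Spry4, a Sprouty inhibitor of Ras signalling, was 2.75 in IkkB KO and 0.793 in Double KO, with WT at 2.33 and Shp2 KO at 0.346, so that it fell by 1.06 on the log2 scale. Dusp6, the phosphatase that inactivates Erk, fell from 13.3 to 7.91, Spred2, another Ras inhibitor, from 1.81 to 0.764 (q = 0.00248 in the authors' deposited table), and Phlda1 from 53.5 to 29.7 (q = 0.00175 in the authors' deposited table). For Spry4 and Dusp6 both genotypes without Shp2 lay below both that keep it, and Double KO stood above Shp2 KO. The feedback inhibitor Spry1 rose from 1.65 to 2.81 (q = 0.0424 in the authors' deposited table), as did the immediate early gene Ier3, from 1.19 to 2.52 (q = 0.0238). Of the list of Ras-Erk feedback and target genes, 15 of 19 members were tested, of which 2 rose, 4 fell and 9 did not change past the threshold, with a median effect of -0.04. With a value of at least 1 required the median was -0.33. In Shp2 KO against WT, 8 of 15 tested members of this list fell and 0 rose. With the second deletion in isolated hepatocytes, 6 of 14 tested members fell and 1 rose.

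Ccnd1, the cyclin D1 gene and a classical Erk target, was one of the members that fell in Shp2 KO liver and not in Double KO liver. Its values were 15.3 in IkkB KO and 22.2 in Double KO, with WT at 20.3 and Shp2 KO at 5.14. The step from IkkB KO to Double KO had an effect of 0.51 (q = 0.0677 in the authors' deposited table, not called), and that from WT to Shp2 KO an effect of -1.80 (q = 0.000955). In isolated hepatocytes it fell with the second deletion, from 13.4 to 7.67 (q = 0.00127 in the authors' deposited table). Dusp4, Spred1 and the transcription factor gene Etv5 had the same order of calls in liver: their effects were -0.18, -0.33 and -0.01 here and -0.69, -0.88 and -0.52 in Shp2 KO against WT, past the threshold in the latter alone. In isolated hepatocytes Dusp4 and Spred1 fell with the second deletion, at -0.65 and -0.58 (q = 0.0246 and 0.00582 in the authors' deposited table). Etv5 was not called there, at -0.32 (q = 0.0768 in the authors' deposited table). The differences between these effects were not tested.

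Few genes of the pathway itself passed the threshold. All 26 members of the list of Shp2, its adaptors and the Ras-Erk kinases were tested, and 24 were not called, with a median of 0.07, a share of calls under the 19% of all genes. Apart from Ptpn11, the adaptor gene Gab2 rose from 0.486 to 0.993 (q = 0.00175 in the authors' deposited table), and the kinase gene Mapk3, which encodes Erk1, had an effect of 0.16 (q = 0.724).

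Genes of the IKK and NF-κB system moved in both directions. Of 19 tested members of 20, 3 rose and 3 fell, with a median of -0.02. Ikbkg, the regulatory subunit of the IKK complex, rose from 10.99 to 17.4 (q = 0.0148 in the authors' deposited table). Map3k14, the kinase NIK of the non-canonical NF-κB branch, rose from 0.809 to 1.83, and Relb, the NF-κB subunit of that branch, from 0.8999 to 2.0005 (q = 0.0055996 in the authors' deposited table). Nfkbia, which encodes IκBα and is itself induced by NF-κB, fell from 38.9 to 26.04 (q = 0.0201), near its WT value of 23.9, and the related kinase gene Ikbke fell from 8.18 to 4.898 (q = 0.00315, all 3 in the authors' deposited table). Among NF-κB target genes, 23 of 25 were tested, and 5 rose and 1 fell. The adhesion molecules Icam1 and Vcam1 rose from 5.62 to 9.28 (q = 0.00248 in the authors' deposited table) and from 4.96 to 9.13. In isolated hepatocytes Vcam1 fell from 5.29 to 3.01 (q = 0.00687) and Icam1 was not called (q = 0.107, both in the authors' deposited table). Of 19 members of the list tested there, 1 rose and 1 fell. The stress gene Gadd45b rose from 1.06 to 3.904, and Cxcl1, a neutrophil-attracting chemokine, from 4.16 to 8.15 (q = 0.00945 in the authors' deposited table). Cxcl1 remained below its WT value of 19.4 in all 3 knockouts.

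The largest rise belonged to fetal genes. H19, a long noncoding RNA that is abundant in fetal liver and shut off after birth, was 0.549 in IkkB KO and 411 in Double KO, with WT at 0.4402 and Shp2 KO at 1.15. The Double KO value was 748 times that of IkkB KO, and the other 3 genotypes were near 1 or below. Among these, the step from WT to Shp2 KO was also called higher, with an effect of 0.58 (q = 0.00248 in the authors' deposited table). Igf2, the fetal growth factor gene next to H19 and imprinted with it, was 0.188, 0.132 and 0.131 in WT, IkkB KO and Shp2 KO, and 12.1 in Double KO. Ly6d, a cell surface protein, rose from 1.399 to 129.8, and it was also high in Shp2 KO, at 65.3 against 1.94 in WT. In isolated hepatocytes H19 rose with an effect of 3.70 (q = 0.0004797 in the authors' deposited table), and Igf2, at 0.0506 in IkkB KO and 0.189 in Double KO, was too low there for the authors' test.

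Most tested members of the list of fetal and tumour markers moved the same way. Of 24 tested members, 18 rose and 2 fell, with a median of 1.08, and 2 further members in the table were not tested. Tff3, a secreted trefoil peptide, rose from 28.2 to 139, whereas in Shp2 KO it was 8.03 against 36.1 in WT. The carbonyl reductase gene Cbr3 rose from 0.5203 to 4.86 and Anxa2, a membrane-binding annexin, from 9.58 to 29.8. The epithelial and duct genes Krt19 and Epcam rose from 0.616 to 1.996 and from 0.939 to 1.96 (q = 0.0166 in the authors' deposited table), against 1.68 and 1.37 in WT. Beside this, 6 of 22 tested members of the list rose and 4 fell in Shp2 KO against WT.

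**Figure D2:**
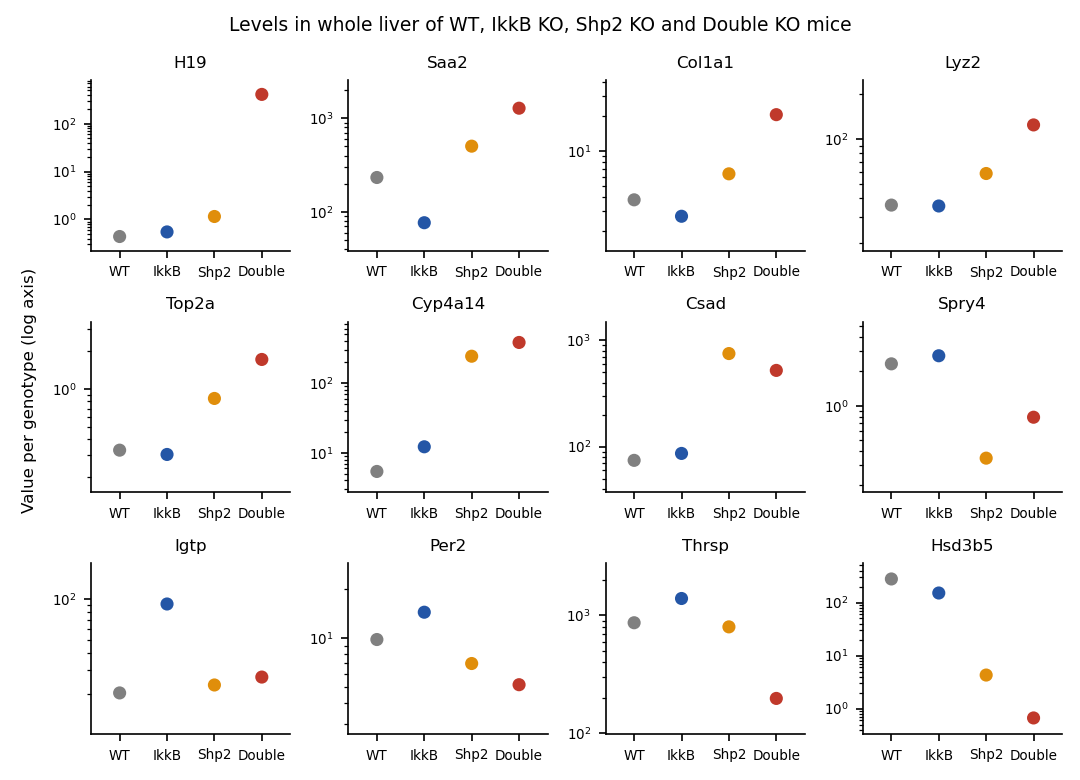
Deposited value of 12 genes in whole liver of each genotype (horizontal axis: WT, IkkB KO, Shp2 KO, Double KO), each panel with its own logarithmic vertical axis and 1 point per genotype, with no error bar because no value per mouse was used. H19 is near 1 or below in 3 genotypes and 411 in Double KO, Csad and Cyp4a14 are high in both genotypes without Shp2, Igtp is high in IkkB KO alone, and Thrsp is lowest in Double KO.

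Most tested mitosis genes rose, at low levels. Of the mitosis list, 17 of 23 tested members rose and 0 fell, with a median of 0.92 (2.01 with a pseudocount of 0.1 in place of 1) and 3 members not tested. Top2a, the topoisomerase of dividing cells, was 0.303 in IkkB KO and 1.72 in Double KO, with WT at 0.328 and Shp2 KO at 0.842. Birc5 (survivin), which acts in chromosome segregation, rose from 1.45 to 6.18, Ccnb2, a mitotic cyclin, from 0.6298 to 3.72, and Cdk1, its kinase, from 0.707 to 3.16. For each of these 4 genes Double KO was the highest of the 4 genotypes and Shp2 KO the next. The mitotic spindle genes Prc1 and Tpx2 rose from 0.252 to 1.77 and from 0.128 to 1.19. In Shp2 KO against WT 16 of 20 tested members of this list rose, and in isolated hepatocytes 19 of 25 rose with the second deletion. The share of all tested genes that rose was 5.23% and 5.75% there, and 11.5% here.

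Of the DNA replication list, 11 of 25 tested members rose and 2 fell, with a median of 0.39 (0.70 with a pseudocount of 0.1). The helicase subunits Mcm2 and Mcm5 rose from 0.835 to 2.21 and from 0.798 to 2.29. Uhrf1, which copies DNA methylation at replication, rose from 0.201 to 0.802. The 2 members that fell in liver were Mcm10, a replication initiation factor, from 35.4 to 12.9, and Rrm2, a subunit of ribonucleotide reductase, from 5.99 to 3.12. Cyclin E1 (Ccne1) rose from 1.49 to 3.04. Its values of 2.93 (WT) and 2.76 (Shp2 KO) lay near that of Double KO, so that only IkkB KO stood apart. Ccne1 fell instead in isolated hepatocytes, from 2.12 to 0.695 (q = 0.00162 in the authors' deposited table). Of 25 members of this list tested in hepatocytes, 5 rose and 2 fell. Of the genes that p53 induces, 8 of 21 tested members rose and 0 fell. Cdkn1a, the cell cycle inhibitor p21, was 1.09 in IkkB KO and 7.98 in Double KO, with WT at 1.805 and Shp2 KO at 2.14. Gdf15, a secreted stress factor, rose from 2.37 to 6.61, the antiproliferative gene Btg2 from 2.93 to 8.66, and the death receptor gene Tnfrsf10b from 0.105 to 0.585. For Gdf15 and Btg2 the Shp2 KO value was near that of WT, at 3.63 against 3.63 and 4.79 against 4.67. Of the list of cell death and Bcl2 family genes 0 rose and 2 fell of 21 tested, which were the proapoptotic Bik (5.61 to 2.83, q = 0.0161 in the authors' deposited table) and Bmf (5.14 to 2.64). That share of calls lay below the 19% of all genes called in either direction, but both calls were falls, and 7.5% of all genes fell.

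Several acute phase genes rose strongly, and the iron hormone genes of the list fell. Saa1 and Saa2, the serum amyloid A genes, rose from 122 to 1474 and from 76.7 to 1280.1. Saa1 was 534 in WT and 636 in Shp2 KO, so that IkkB KO was the lowest and Double KO the highest of the 4 genotypes, and Saa2 had the same order, at 233 and 504. These 2 genes are near-identical, and reads may be split between them. Orm2, an orosomucoid, rose from 22.8 to 649.6 and was 126 in Shp2 KO and 14.8 in WT. Lcn2, a siderophore-binding protein of hepatocytes and neutrophils, rose from 11.9 to 131, and Socs3, the feedback inhibitor that Stat3 induces, from 3.49 to 15.1, with WT at 8.38 and Shp2 KO at 8.39. Of 28 tested members of the acute phase list of 30, 11 rose and 4 fell, with a median of 0.41. The falls included Hamp and Hamp2, the hepcidin genes, from 8532 to 2661 and from 428 to 36.2.

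Metallothioneins, small proteins that bind zinc and copper, rose from a very low level in IkkB KO. Mt1 was 133 in IkkB KO and 386 in Double KO, with WT at 1675 and Shp2 KO at 194, and Mt2 was 44.7, 220.1, 1032 and 99.6 in that order. In both cases all 3 knockouts lay below WT, with Double KO the highest of the knockouts. The zinc importer genes Slc39a5 and Slc39a4 rose from 0.495 to 6.37 and from 15.02 to 24.9 (q = 0.00175 in the authors' deposited table for the latter). Of the 7 members of this list 4 rose and 0 fell.

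Immediate early and stress genes also rose in part. Of 21 tested members of the immediate early list of 24, 9 rose and 1 fell, with a median of 0.36 (0.60 with a pseudocount of 0.1). Jun, a subunit of the AP-1 transcription factor, rose from 5.32 to 11.8, Jund from 19.99 to 37.2, Fosl2 from 1.19 to 3.03 and Klf6 from 1.87 to 5.56. In these 4 genes the Double KO value was the highest of the 4 genotypes. Myc was 3.25 in IkkB KO and 4.14 in Double KO and was not called (q = 0.434 in the authors' deposited table). Of the list of unfolded protein and integrated stress genes, 8 of 27 tested members rose and 2 fell. Asns, which makes asparagine, rose from 1.21 to 8.35 and was 17.2 in Shp2 KO, Atf3, a stress-induced transcription factor, rose from 1.12 to 3.02, and Dnajb9, a chaperone of the endoplasmic reticulum, from 22.8 to 39.5. The chaperone partner Sdf2l1 rose from 18.1 to 32.2 (q = 0.00175 in the authors' deposited table) and stayed below its WT value of 48.5. Of 17 heat shock genes 2 rose, Hspb1 from 12.3 to 28.4 and Hspa1b from 6.52 to 10.3 (q = 0.0307 in the authors' deposited table), a share near the 11.5% of all genes that rose.

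Most tested matrix genes were higher in Double KO liver. Col1a1, which encodes a chain of type I collagen, was 2.71 in IkkB KO and 20.7 in Double KO, with WT at 3.77 and Shp2 KO at 6.33. Col3a1 rose from 6.37 to 35.4, Col1a2 from 3.903 to 19.6, and the collagen-binding proteoglycan gene Lum from 4.13 to 20.5. Double KO was the highest and IkkB KO the lowest genotype for each of these 4 genes. The basement membrane collagen gene Col4a1 rose from 3.53 to 11.3 and Col5a2 from 0.5896 to 3.17. Among 29 tested members of the matrix list 22 rose and 0 fell, with a median of 0.94. In Shp2 KO against WT 3 rose and 3 fell of 28 tested. In isolated hepatocytes 2 rose and 2 fell of 24 tested with the second deletion. Col1a1 was among those that rose there, with an effect of 0.63 (q = 0.00442 in the authors' deposited table), and Col3a1 had an effect of 0.03 and was not called (q = 0.961).

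Markers of other liver cells moved with these genes. Macrophage markers rose in 19 of 21 tested members and fell in 0, with a median of 0.97, and their summed value was 437 in IkkB KO and 920.1 in Double KO, with WT at 327 and Shp2 KO at 447. Lyz2, the lysozyme of myeloid cells, rose from 35.5 to 124, Adgre1, which encodes the macrophage antigen F4/80, from 3.61 to 9.59, and C1qb, a complement subunit made by macrophages, from 57.6 to 129. Trem2 and Gpnmb, genes of lipid-laden macrophages, rose from 0.753 to 5.44 and from 0.126 to 2.197. The scavenger receptor gene Marco rose from 11.7 to 23.4. Neutrophil markers rose in 7 of 8 tested members, among them the calprotectin genes S100a8 (2.17 to 14.1) and S100a9 (4.07 to 13.01), while 5 others in the table were not tested. Their summed value was 19.8 in IkkB KO and 163 in Double KO, of which Lcn2, which hepatocytes also make, is the main part. Of 18 stellate and fibroblast markers, 9 rose and 1 fell, and 4 of the risen ones, Col1a1, Col1a2, Col3a1 and Lum, also stand in the matrix list. The fallen one was Ecm1, from 99.9 to 48.05.

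Bile duct markers rose in 7 and fell in 1 of 13 tested members. Spp1, osteopontin, rose from 31.1 to 137, Tm4sf4 from 72.8 to 194 and the tight junction gene Cldn7 from 0.337 to 1.35. The duct keratin Krt19 and Cldn7 were lower in IkkB KO than in WT, and above WT in Double KO (0.951 in WT for Cldn7). Endothelial markers were near the background, with 2 of 17 rising and a summed value of 166 in IkkB KO and 173 in Double KO. T and NK cell markers fell in 4 of 14 tested members and rose in 0, with Gzmb, the cytotoxic granzyme B, falling from 1.36 to 0.399 and WT at 0.388. Of 6 tested B and plasma cell markers 0 passed the threshold of the authors' Cuffdiff test and 1 reached 0.05 in the authors' deposited table before adjustment. The 11 tested hepatocyte markers, with 5 in the table too abundant or too low to test, held 1 that changed, the drug-metabolising Cyp3a11, which rose from 346 to 1596, and their summed value was 21819 in IkkB KO and 15389.6 in Double KO. The part of the cell makeup in the matrix, acute phase, cell cycle and chemokine results was not tested.

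Chemokine genes rose in 12 and fell in 2 of 27 tested members of 33, with a median of 0.44 (0.95 with a pseudocount of 0.1). Cxcl14 rose from 0.693 to 5.74, Cxcl13, which attracts B cells, from 0.749 to 4.07, Ccl6 from 5.06 to 15.6 and Cxcl16 from 4.37 to 9.69. Ccl9 fell from 28.8 to 13.5 and was lowest in Shp2 KO, at 7.64 against 23.7 in WT.

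**Figure D3:**
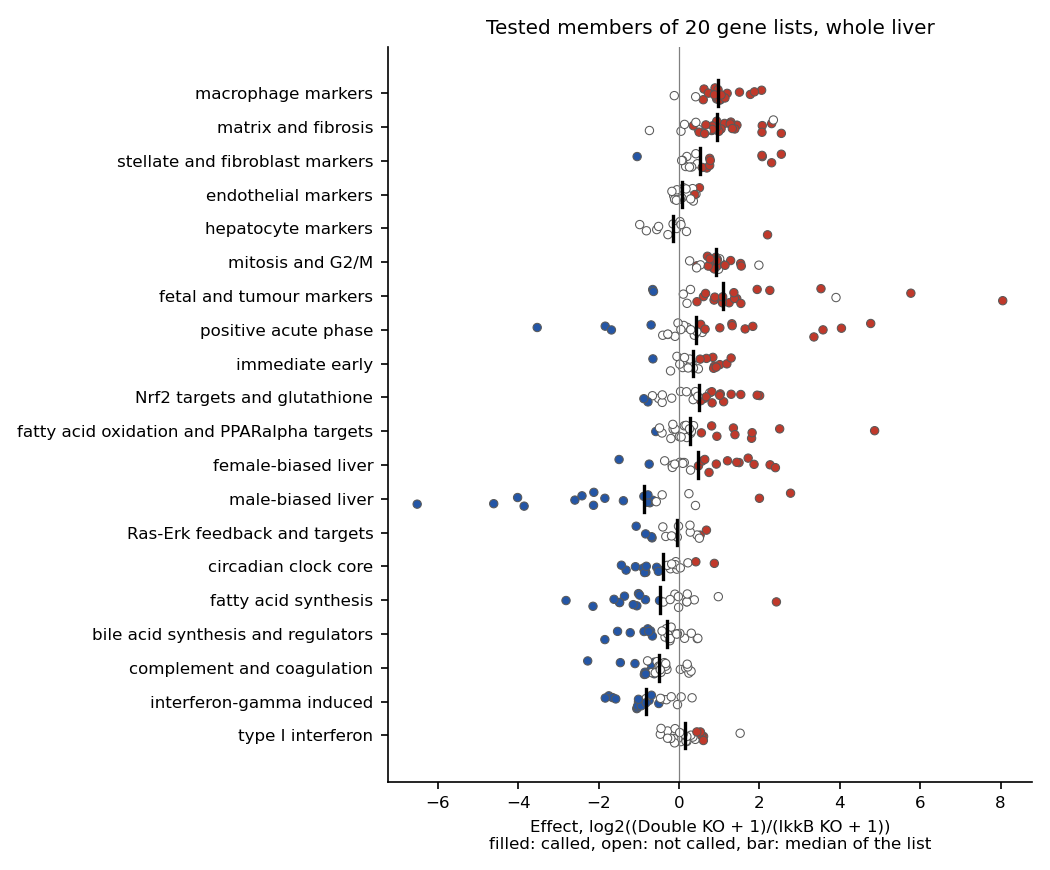
Effect of Double KO against IkkB KO (horizontal axis, log2) for the tested members of 20 gene lists (rows), 1 circle per gene, filled red where the gene rose, filled blue where it fell and open where it was not past the threshold. The black bar is the median of the tested members. Macrophage, matrix, mitosis and fetal lists lie mostly to the right of 0, and the male-biased, clock, fatty acid synthesis and interferon-gamma lists mostly to the left.

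Most tested genes that interferon-gamma induces went down. Igtp, a GTPase that guards against intracellular pathogens, was 92.2 in IkkB KO and 26.8 in Double KO, with WT at 20.5 and Shp2 KO at 23.4, so that only IkkB KO stood apart. Of 22 tested members of the list 14 fell and 0 rose, with a median of -0.82, and in isolated hepatocytes 16 fell and 0 rose. The Shp2 KO livers had 5 lower and 1 higher than WT. The immunoproteasome subunit genes Psmb8 and Psmb9 fell from 78.2 to 38.4 and from 84.8 to 27.9, with WT at 36.2 and 33.7. The guanylate-binding protein genes Gbp10 and Gbp3 fell from 6.89 to 1.21 and from 9.09 to 3.92, and the GTPase gene Iigp1 from 199 to 62.7. These families hold near-identical copies, and values of single copies are uncertain. T and NK cells make interferon-gamma, and the 4 of their markers that fell, given above as a count, had q from 0.000955 to 0.0486 in the authors' deposited table. Their part in the fall of the induced genes was not tested.

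Part of the antigen presentation genes fell as well. Of 19 tested members of the list 8 fell, 0 rose and 11 were not called, with a median of -0.39. In isolated hepatocytes 15 of 19 tested members fell. The peptide transporter genes Tap1 and Tap2 fell from 25.3 to 10.6 and from 23.1 to 12.5, the immunoproteasome gene Psmb10 from 79.9 to 48.7, and Nlrc5, the transactivator of class I genes, from 5.91 to 3.62 (q = 0.00442 in the authors' deposited table). The WT values of Tap1 (13.7), Psmb10 (47.9) and Nlrc5 (2.79) lay closer to Double KO than to IkkB KO. Of 24 tested type I interferon genes 5 rose and 0 fell, with a median of 0.14. Of all genes tested 11.5% rose and 7.5% fell. The difference from the interferon-gamma list was not tested. The risen type I genes included oligoadenylate synthetase genes such as Oas2, from 2.48 to 4.304 (q = 0.00248 in the authors' deposited table) and Oas3, from 0.462 to 1.12, and the antiviral Rsad2, from 1.55 to 2.47 (q = 0.04203). In isolated hepatocytes 1 of 24 tested members of the type I list rose and 6 fell, with a median of -0.20.

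Part of the clock repressors and output factors of the clock fell in Double KO. Per2 was 14.4 in IkkB KO and 5.18 in Double KO, with WT at 9.795 and Shp2 KO at 6.99, and Per3 was 10.8, 4.59, 7.25 and 6.38 in that order. For both, IkkB KO was the highest and Double KO the lowest of the 4 genotypes. Of the D-box-binding output factors, Hlf fell from 11.9 to 5.999, Dbp from 146 to 82.3 (q = 0.0258 in the authors' deposited table) and Tef from 73.2 to 49.5 (q = 0.0467). The E-box repressor genes Bhlhe40, Bhlhe41 and Ciart fell from 68.9 to 37.6, from 1.34 to 0.639 (q = 0.00248 in the authors' deposited table) and from 31.7 to 17.6, and Cry2 from 14.6 to 10.2 (q = 0.0451).

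Nfil3, which represses the same D-box sites that Dbp activates, rose from 5.01 to 10.1, as did the activator gene Clock, from 1.33 to 2.11 (q = 0.0148 in the authors' deposited table). Of 21 genes in the core list 20 were tested, of which 10 fell, 2 rose and 8 were not called, with a median of -0.39. Those not called were Arntl, Per1, Cry1, Nr1d1, Nr1d2, Rora, Csnk1d and Csnk1e, with effects between -0.29 (Nr1d1) and 0.22 (Arntl), and Npas2 was too low to test. In isolated hepatocytes, 13 of 21 fell and 3 rose, with a median of -0.62, and Dbp, Ciart and Per2 had effects of -2.69, -2.43 and -2.04. Arntl, not called in liver (q = 0.237 in the authors' deposited table), rose in hepatocytes with an effect of 1.44 (q = 0.0004797). In Shp2 KO against WT only Bhlhe40 and Bhlhe41 fell (-0.89 and -0.51, with q = 0.000955 and 0.0119 in the authors' deposited table). The differences between these comparisons were not tested.

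**Figure D4:**
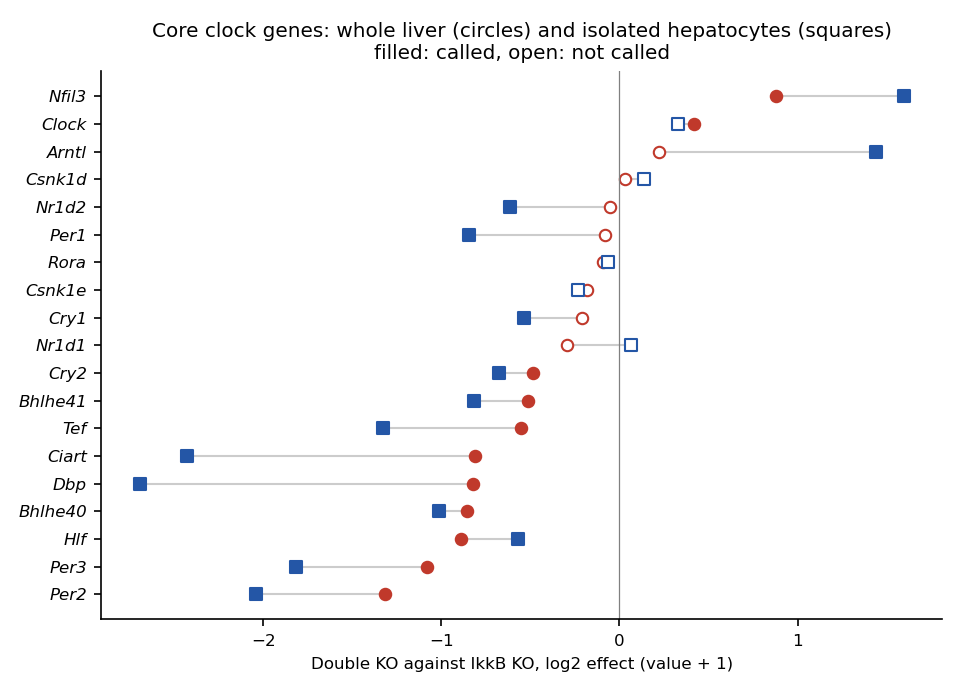
Effect of Double KO against IkkB KO (horizontal axis, log2) for 19 core clock genes tested in whole liver (rows), with circles for whole liver and squares for isolated hepatocytes, filled where past the threshold. Dbp and Ciart lie at -0.82 and -0.81 in liver and at -2.69 and -2.43 in hepatocytes, and Nfil3 and Arntl lie to the right of 0 in both.

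Promoters of 3 fallen clock genes with the canonical E-box, the site of Clock and Arntl, and of Per3 with a D-box are given from RefSeq (build GRCm38.p6), since these 2 motifs carry clock regulation. The E-box was searched as CACGTG and the D-box as TTATGNAA, on both strands and within 250 bases before the start. CACGTG was found in 5 of 16 core clock genes with a promoter in the table, 3 of them among the 9 called members with a promoter, against 9.87% of all tested genes with a promoter. TTATGNAA was found in 2 of the 16, against 2.52%. The stretches are chr15:81802506-81802591 on the + strand for Tef, chr6:145865528-145865613 on the - strand for Bhlhe41, chr3:95882229-95882312 on the - strand for Ciart and chr4:151044776-151044863 on the - strand for Per3, with 1 match each in capitals.
Tef: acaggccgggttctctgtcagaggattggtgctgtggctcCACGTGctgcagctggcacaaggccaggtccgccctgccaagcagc
Bhlhe41: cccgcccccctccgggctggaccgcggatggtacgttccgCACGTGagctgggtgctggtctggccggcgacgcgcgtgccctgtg
Ciart: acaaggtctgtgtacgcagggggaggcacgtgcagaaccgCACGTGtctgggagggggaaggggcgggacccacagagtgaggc
Per3: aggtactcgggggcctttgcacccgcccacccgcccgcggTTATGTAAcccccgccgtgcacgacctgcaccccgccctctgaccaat
The Ciart promoter holds 3 E-box matches, of which 2 lie in the stretch printed. The Per3 promoter holds 2 D-box matches, of which 1 lies in the stretch printed. Per1 and Cry1, which were not called, also hold the E-box, and Per1 holds the D-box as well.

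Clock output genes held the second largest fall. Rgs16, a regulator of G protein signalling that cycles in hepatocytes, was 161 in IkkB KO and 0.885 in Double KO, with WT at 38.9 and Shp2 KO at 2.95, so that the IkkB KO value was 181 times that of Double KO. Gys2, the liver glycogen synthase, fell from 181 to 69.9, Ppp1r3c, a glycogen-targeting subunit of a phosphatase, from 16.6 to 4.82, and Upp2, uridine phosphorylase, from 389 to 169. Pdk4, which blocks pyruvate oxidation, rose from 0.711 to 2.29. Of 22 tested members 7 fell and 3 rose, with a median of -0.19.

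Male-biased genes mostly fell, and part of the female-biased genes rose. Growth hormone, secreted in pulses in males and more evenly in females, sets these genes in mouse liver. Hsd3b5, a steroid dehydrogenase of male liver, was 151 in IkkB KO and 0.666 in Double KO, with WT at 278 and Shp2 KO at 4.29, and the IkkB KO value was 227 times that of Double KO. Mup3, a major urinary protein, fell from 13728 to 562, and Mup1, Mup12, Mup16 and Mup17 of the same near-identical family had effects of -4.01, -4.20, -3.50 and -4.50. The Mup genes are listed as too abundant to test in WT, and single copies are uncertain. Slco1a1, an organic anion transporter, fell from 89.5 to 5.27, Ugt2b38, a glucuronosyltransferase, from 5.73 to 0.118, and Cyp7b1, which hydroxylates oxysterols, from 102 to 27.8. Of 21 tested members of the male-biased list 15 fell and 2 rose, with a median of -0.87. Cyp4a12b, although male-biased, rose from 16.3 to 118.

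Among female-biased genes 12 of 23 tested members rose and 2 fell, with a median of 0.48, and 6 members were not tested. Cyp2a4 rose from 11.4 to 58.7, against 0.416 in WT, Ntrk2, a neurotrophin receptor, from 0.455 to 6.68, Slc16a5, a monocarboxylate carrier, from 3.61 to 15.8, and Acot3, an acyl-CoA thioesterase, from 3.04 to 10.4. Cyp17a1, a steroid hydroxylase, fell from 16.8 to 5.34, near its WT value of 4.11. In the growth hormone list 5 of 16 tested members fell and 1 rose. The receptor gene Ghr fell from 207 to 128 (q = 0.0358 in the authors' deposited table), Igfals, which stabilises circulating Igf1, from 84.5 to 52.6 (q = 0.0055996), and the transcription factor genes Bcl6 and Onecut1 from 5.51 to 2.25 and from 4.74 to 2.01. Socs2, the feedback inhibitor that growth hormone induces, rose from 7.01 to 15.6 and was 18.9 in WT.

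Many fatty acid synthesis genes fell. Thrsp, a regulator of lipid synthesis, was 1394 in IkkB KO and 198 in Double KO, with WT at 868 and Shp2 KO at 801. Srebf1 and Mlxipl, which encode the master regulators Srebp1 and ChREBP, fell from 143 to 50.8 and from 170.5 to 60.6, Pklr, the pyruvate kinase of liver, from 261 to 58.6, and Lpin1, a phosphatidate phosphatase, from 109 to 34.98. In each of these 5 genes IkkB KO had the highest and Double KO the lowest value of the 4 genotypes. Scd2, a fatty acid desaturase of fetal rather than adult liver, rose from 1.15 to 10.5. Of 23 tested members 12 fell and 1 rose, with a median of -0.48, against 2 that fell and 3 that rose in Shp2 KO against WT.

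Part of the targets of PPARalpha, the receptor that induces fatty acid oxidation, rose, and genes of lipid uptake moved in both directions. Cyp4a14, a fatty acid hydroxylase, was 12.2 in IkkB KO and 384 in Double KO, with WT at 5.39 and Shp2 KO at 244, and Cyp4a10 rose from 27.5 to 98.6. Fgf21, a fasting hormone of the liver, rose from 1.496 to 13.2, the thioesterase gene Acot1 from 4.797 to 19.5, and Acaa1b, a peroxisomal thiolase, from 396 to 1013. Of 25 tested members 9 rose, 1 fell and 15 were not called, with a median of 0.26. Cd36, which takes up fatty acids, rose from 4.15 to 37.3, Pparg, the lipid storage receptor, from 4.36 to 11.95, and Cidec, a lipid droplet protein, from 2.07 to 6.77. The lipoprotein lipase gene Lpl rose from 5.402 to 16.1 and Apoa4 fell from 355 to 169. Of the uptake and droplet list 8 of 22 tested members rose and 5 fell.

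Glucose genes fell more often than they rose, 9 against 4 of 28 tested. G6pc, glucose-6-phosphatase, was 278 in IkkB KO and 103 in Double KO, with WT at 326 and Shp2 KO at 314, and its transporter Slc37a4 fell from 203 to 99.5. The glycogen phosphorylase gene Pygl fell from 219.7 to 103 and Pfkfb3, which activates glycolysis, from 15.2 to 6.38. Genes of amino acid breakdown and the urea cycle fell in 9 and rose in 1 of 26 tested, with a median of -0.30. Arginase (Arg1) fell from 1320.4 to 586 (q = 0.00175 in the authors' deposited table), Asl, the step before it, from 559.6 to 269, Otc from 299 to 168 (q = 0.00248), and Hal, which breaks down histidine, from 137 to 59.02.

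Bile acid synthesis genes fell in 8 and rose in 0 of 22 tested, with a median of -0.30. Cyp2c70, which makes the muricholic acids of rodents, was 412 in IkkB KO and 142 in Double KO, with WT at 565 and Shp2 KO at 239. The bile acid receptor gene Nr1h4 (FXR) fell from 91.7 to 54.1, and Nr0b2 (SHP), the repressor it induces, from 28.003 to 14.9. Acox2, a peroxisomal oxidase of bile acid side chains, fell from 66.7 to 40.5 (q = 0.00379 in the authors' deposited table). Transporters moved both ways, 6 up and 7 down of 21 tested. Slc10a1 (NTCP), which takes up bile acids from blood, fell from 604 to 237 and the anion transporter gene Slc22a7 from 48.1 to 10.8. Abcb11, the bile salt export pump, rose from 66.2 to 164, and Slc51b, which exports bile acids back to blood, from 1.47 to 8.33. Abcg8, a sterol exporter subunit, fell from 54.3 to 18.8.

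Csad, the enzyme that makes the taurine used to conjugate bile acids, was 86.4 in IkkB KO and 520.5 in Double KO, with WT at 74.4 and Shp2 KO at 749. The genotypes lacking Shp2 were both high and those keeping it both low. Cth, which makes cysteine, rose from 259 to 557, and the taurine transporter gene Slc6a6 from 15.5 to 24.2 (q = 0.0114 in the authors' deposited table). Of the taurine and sulfur list of 17 tested members 4 rose and 2 fell. Few cholesterol synthesis genes passed the threshold, with 2 up and 1 down of 24 tested and a median of 0.08, a share of calls below that of all genes. In Shp2 KO against WT 14 members of this list rose and 0 fell, with a median of 0.74, and in isolated hepatocytes 9 rose and 1 fell with the second deletion. Idi1, which makes an isoprenoid building block of the pathway, rose from 6.67 to 10.9 (q = 0.00732 in the authors' deposited table). The difference between the comparisons was not tested.

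Genes of glutathione and the antioxidant factor Nrf2 rose in 12 and fell in 2 of 26 tested, with a median of 0.51. Gstm3, a glutathione transferase, was 86.01 in IkkB KO and 349 in Double KO, with WT at 62.01 and Shp2 KO at 236. Ephx1, an epoxide hydrolase, rose from 286 to 586, Ugdh, which makes UDP-glucuronic acid, from 82.8 to 168, Gclm, a subunit of the enzyme that starts glutathione synthesis, from 80.5 to 125 (q = 0.0124 in the authors' deposited table), and Hmox1, heme oxygenase, from 17.04 to 37.97. In Ephx1 and Ugdh the Shp2 KO value was the highest of the 4, at 643 and 182. Against WT, 13 members of this list rose and 2 fell in Shp2 KO. Cytochrome P450 genes of detoxification fell in 8 and rose in 5 of 25 tested, with a median of -0.36. Cyp1a2 fell from 619 to 231, Cyp2f2 from 880.4 to 398 and Cyp2c54 from 219.6 to 71.1, whereas Cyp2c38 rose from 20.6 to 46.7. Of the same list in isolated hepatocytes 8 rose and 0 fell of 25 tested, with a median of 0.37. The difference from liver was not tested. Pericentral genes, which Wnt signalling sets, rose in 3 and fell in 3 of 17 tested here, while 10 rose and 0 fell in isolated hepatocytes.

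Part of the proteins that liver secretes fell. Of 31 tested complement and coagulation genes 10 fell and 0 rose, with a median of -0.50. F11, coagulation factor XI, was 54.6 in IkkB KO and 10.5 in Double KO, with WT at 55.8 and Shp2 KO at 15.2. Proc, the anticoagulant protein C, fell from 650.5 to 304, F7 from 85.9 to 47.3 and Klkb1, plasma kallikrein, from 69.5 to 38.7. C4a fell from 8.06 to 2.297 and has a near-identical copy, so its value is uncertain. The same number of members, 10, fell in Shp2 KO against WT. Of 20 core hepatocyte transcription factors 3 fell, among them Onecut1 as above, and 1 rose, Cebpd, from 2.76 to 4.803 (q = 0.0464 in the authors' deposited table). That share of calls was near the 19% of all genes.

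Set beside Shp2 KO against WT, the Shp2 deletion in livers that keep Ikbkb, the effects went the same way in part. Shp2 KO mice carry Cre and WT are described only as C57/BL6 controls, whereas both groups of the main comparison carry Cre. A part of Cre in the Shp2 KO against WT effects was not tested. The 2 comparisons share no library, but their values stand in 1 table. Over 10613 genes with a value of at least 1 in both, Pearson's r of the effects was 0.467 and Spearman's rho 0.437, as a description across genes, which are not independent. Of the genes called here 720 were called there as well, which is 29.3% of the 2459 and 61.3% of the 1174 called in Shp2 KO against WT. In 680 the direction was the same (398 higher, 282 lower) and in 40 it was opposite. Genes with large effects in both included Serpina12, an adipokine-like serpin, at -3.09 here and -3.28 there, Tuba8, a tubulin, at 3.06 and 2.42, and Cyp4a14, Csad and Hsd3b5 above.

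Opposite directions were found for Mt1, Mt2 and Tff3 above and for Slc41a2, a magnesium transporter (1.06 here and -1.18 there). Cabyr, a calcium-binding protein, was another (-1.50 and 0.93), as was Ccrn4l, the deadenylase nocturnin (-0.91 and 0.95). For Slc41a2 the values were 2.57 in IkkB KO and 6.45 in Double KO, with WT at 6.78 and Shp2 KO at 2.44, so that the 2 single knockouts were both low and the other 2 genotypes alike. For Ccrn4l they were 35.97, 18.7, 19.2 and 38.1 in that order, with the single knockouts both high. Of the genes called here, 2293 were tested there. Among these 2293, 745 with a value of at least 1 here (448 higher, 297 lower) had an effect smaller than 0.2 in size there. The share of all tested genes with so small an effect there was not computed, so this count does not set the 745 apart. Among the largest effects of the 745 were Thrsp (-2.81 here, -0.12 there), Cdkn1a (2.10, 0.16), Socs3 (1.84, 0.00), Prtn3, a protease of neutrophil granules (2.69, -0.11), Slpi, a secreted protease inhibitor (2.00, 0.19), and Inmt, a methyltransferase (-2.08, -0.16).

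**Figure D5:**
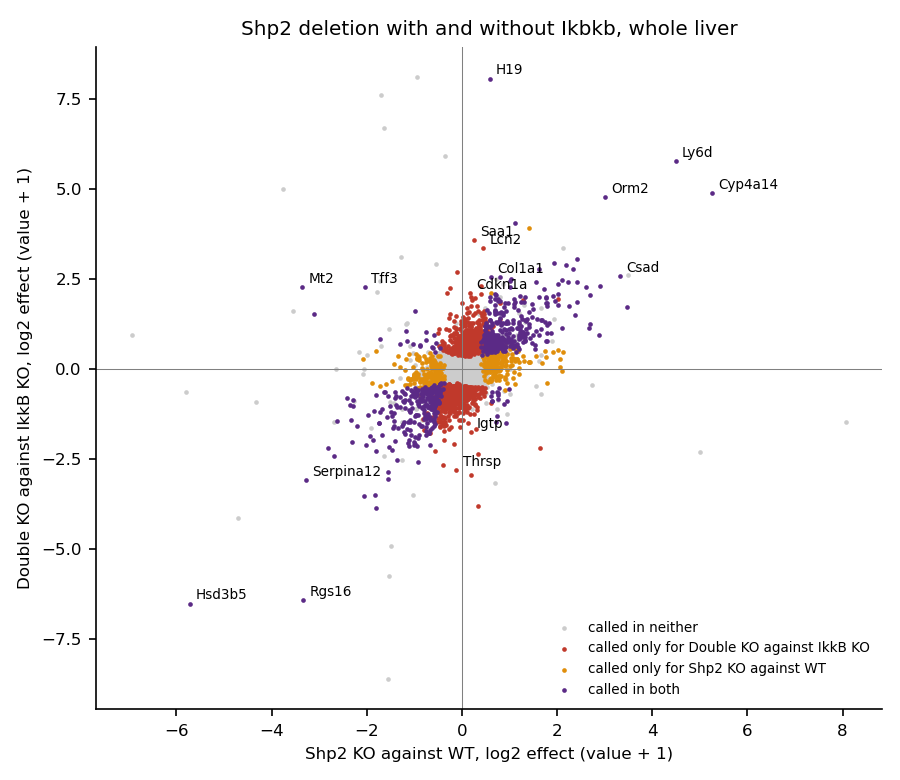
Effect of Double KO against IkkB KO (vertical axis, log2) against that of Shp2 KO against WT (horizontal axis, log2) for the 10613 genes with a value of at least 1 in both comparisons, coloured by the comparisons in which they were called. Ly6d and Cyp4a14 lie at the upper right, Hsd3b5 and Rgs16 at the lower left, Mt2 and Tff3 at the upper left, and Thrsp lies near 0 on the horizontal axis.

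Set beside isolated hepatocytes of the same 2 genotypes, 871 of the genes called in liver were also called, 35.4% of the 2459 and 62.1% of the 1402 called in hepatocytes. The direction was the same in 837 (451 higher, 386 lower) and opposite in 34. Pearson's r over 10406 genes with a value of at least 1 was 0.566 and Spearman's rho 0.481. The hepatocytes are separate libraries in a separate table, so only effects and not levels are compared. Cyp3a11, Cyp4a14 and Csad, the named genes of drug, fatty acid and taurine metabolism, had effects of 3.70, 5.25 and 4.16 there, beside 2.20, 4.87 and 2.58 in liver.

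Among the 580 genes called in liver at a value of at least 1 and with an effect under 0.2 in size in hepatocytes (366 higher, 214 lower) were Col3a1, Col1a2 and Lum above, S100a8 (2.25 in liver, 0.198 in hepatocytes), Tff3 (2.26, -0.17) and Ppp1r3c (-1.60, 0.05). Of the genes called in liver, 2242 were tested in hepatocytes. The share of all tested genes with so small an effect in hepatocytes was not computed, so the count of 580 does not set these genes apart. Opposite calls included the macrophage marker Marco (0.94 in liver, -1.44 in hepatocytes), Tgfbi, an extracellular matrix protein (0.87, -0.79), and Col14a1, a fibril-associated collagen (0.76, -1.02). Marco does not stand for its list, since of 19 macrophage markers tested in hepatocytes 3 rose and 2 fell. Lyz2 was among those that rose there, with an effect of 0.89 (q = 0.0004797 in the authors' deposited table). The drug-metabolising Cyp2c29 and Cyp2c50 fell in liver (-0.85 and -1.005, with q = 0.00945 and 0.00248 in the authors' deposited table) and rose in hepatocytes (1.31 and 1.10, both with q = 0.0004797). Stellate and fibroblast markers, of which 9 rose and 1 fell in liver, were called higher in 1 and lower in 9 members in the isolated cells. How completely hepatocytes were separated from other cells in each genotype is not given in the sources used here.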

How the data were processed

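PolyA RNA libraries (TruSeq v2) of 12 whole livers and 12 hepatocyte isolations were processed by the authors with FastQC and Cuffdiff, per the submitters' processing notes, which name the build mm9. Nothing in the sources used here gives an aligner, annotation, version or strand setting, so overlapping, antisense and near-identical genes are uncertain. The authors deposited expression values, 1 per gene and genotype, by Cuffdiff's convention FPKM (unit not named in the header). The authors also deposited log2 fold changes, used here only to check signs, and a test score, left unused. Each p-value and q-value is from the authors' Cuffdiff test, the q-value being Benjamini-Hochberg adjusted. The liver q-values were recomputed over the 6 genotype pairs together (largest difference 5.27e-07), and those of hepatocytes could not be (0.284, 5 pairs). The 2 tables hold 0 columns per sample, so depth is unknown and no test over mice was run.

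Genes with status OK, a value reaching 0.1 in 1 genotype or both and q under 0.05 were called. No OK row was lost to the value filter. Effects used a pseudocount of 1. In Python 3.11.15 (numpy 2.4.6, pandas 2.3.3, scipy 1.17.1, matplotlib 3.10.9), 51 gene lists were counted, 10 of them cell type markers, holding 1058 genes, 959 of them tested. The members and lists were chosen with earlier results of these data known. Named genes are Ikbkb and Ptpn11, the 12 largest rises and falls at a value of at least 1, up to 6 called members per list, all members of 4 signalling and clock lists, the 2 largest effects of a list with no call, and 8 genes per class beside each other comparison. A few genes that this rule or the lists hold are counted but not reported here by name. The counting steps were tested on simulated data. Promoters are RefSeq's, build GRCm38.p6, matched by symbol. Alternatives were q under 0.01, adjustment within the comparison, other value filters, a pseudocount of 0.1, centring on the median and an effect of at least 1.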

Additional observations from a re-analysis of the deposited data

How the results depend on the processing

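The call rests on 1 q-value per gene, and with no value per mouse no library could be left out. No paired analysis was possible because the deposited tables give 1 value per genotype and no replicate columns. Under a q-value below 0.01 in the authors' deposited table, 1668 genes were called (1013 higher, 655 lower), under adjustment within the comparison 2806 (1676 and 1130), and with a value of at least 1 required 2100 (1183 and 917). With no value filter, a pseudocount of 0.1 or centring on the median, 2459 were called. That count was fixed in advance, since the pseudocount and centring leave q alone and the value filter removed 0 rows. Requiring an effect of at least 1 in size left 525 (280 higher, 245 lower), and lowered the number of calls over the lists from 404 to 179. At q under 0.01 the genes called in both this comparison and Shp2 KO against WT fell to 469, of which 444 had the same direction, and those called in both liver and hepatocytes to 557, of which 545 had. These settings are stricter by construction. The share of calls that were higher ranged from 53.3% to 60.7%, and 0 of 153 list medians changed sign under the value filter, pseudocount and centring alternatives, while 25 moved by 0.1 or more, each away from 0. Of 321 named genes tested, 265 were called. At q under 0.01, 35 lost the call, and 108 lost it where an effect of 1 was required. Under adjustment within the comparison 3 gained it. These settings cannot change a direction. A value of at least 1 left 13 of the 321 out of the test, 7 of them called. Genes with values under 1 in both genotypes were 359 of the calls. Because depth is unknown, a low gene that was not called cannot be read as unchanged.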

Other observations

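Iron genes, not described above apart from the hepcidins and Hmox1, moved in 6 of 17 tested members. The transferrin receptor gene Tfrc, which takes up iron, rose from 3.66 to 8.04, the iron sensor Hfe from 22.6 to 34.3 (q = 0.0184 in the authors' deposited table) and the metal transporter gene Slc11a2 from 8.11 to 12.5 (q = 0.0184 in the authors' deposited table). The hemoglobin gene Hbb-b2 rose from 21.9 to 33.5 (q = 0.0329 in the authors' deposited table), as 1 of 3 tested erythroid markers. Respiratory chain genes were mostly not called, with 3 of 26 falling and 0 rising, among them Uqcrb, a subunit of complex III, from 399 to 234. Of 26 ribosomal protein genes 1 fell, Rpl11, from 492 to 334 (q = 0.0372 in the authors' deposited table). Both shares of calls lay below the 19% of all genes called in either direction, but these calls were all falls, and 7.5% of all genes fell. In each of the 2 lists 20 of 26 effects were negative, with medians of -0.18 and -0.15. Cela1, an elastase and the 1 called gene of 2 tested pancreatic acinar markers, fell from 26.98 to 5.92, and in Shp2 KO it was 6.24 against 34.6 in WT.

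Among the largest falls not yet named, Fam47e was 30.7 in IkkB KO and 1.25 in Double KO, with WT at 13.9 and Shp2 KO at 17.8. Sucnr1, the succinate receptor gene, fell from 19.3 to 0.7802 and Serpina7, which carries thyroid hormone, rose from 8.18 to 69.1. Cebpe, a transcription factor of granulocyte maturation, fell in liver (-1.68) and rose in isolated hepatocytes (1.35, q = 0.00384 in the authors' deposited table). Of the tested genes that were not called, 31 had an effect of 2 or more in size, and 20 of these were listed at 0 in 1 genotype. They were chosen after their values were seen, and 25 of the 31 are microRNA or small nucleolar RNA genes.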
